A study of Mus musculus with 15 samples.

Results

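The comparison described here is chronic carbon tetrachloride (CCl4) injury against untreated liver. It covers every gene of the deposited expression table, 1711 genes that were higher and 1800 that were lower in CCl4 than in oil livers, in 6 of the 15 libraries of the series: the 3 from CCl4 livers and the 3 from untreated livers. The genes had been chosen for that table by the difference between CCl4 and oil livers, so the untreated libraries took no part in the choice and serve as a second baseline. The question was which CCl4 changes hold against untreated liver and which vanish or reverse.

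All mice were wild-type male Swiss Webster mice, an outbred stock, of 4 to 5 weeks of age when injections began. Each library is bulk tissue from the liver of 1 mouse. Individual lobes were frozen for RNA, and which lobe was used is not given. CCl4 mice received 4 µl CCl4 in 26 µl corn oil per 25 g body weight by intraperitoneal injection 3 times per week for 5 weeks and were killed 36 h after the last injection. Untreated mice were littermates that received no injection. Oil mice received 30 µl corn oil per 25 g on the CCl4 schedule, and are given beside the comparison as the first baseline. The CCl4 and untreated groups therefore differ by the toxin, by corn oil and by 5 weeks of handling and injection, and these cannot be told apart in the 6 libraries. The remaining 6 libraries, from CCl4 and oil mice that also received hepatocyte extracellular vesicles (EV), entered only the estimate of the spread between replicates.

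CCl4 is turned into a reactive radical by cytochrome P450 enzymes, chiefly Cyp2e1, in the hepatocytes around the central vein, which are killed. Surviving hepatocytes divide to replace them, macrophages clear the debris, and hepatic stellate cells become matrix-secreting myofibroblasts, so that repeated doses leave collagen scars. The untouched male mouse liver is marked by zonated metabolic enzymes and by growth hormone driven genes such as the major urinary protein (Mup) cluster.

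Each value is a normalized count, the number of reads of a gene divided by a size factor of its library. The genes of the table took between 6106856 and 7886582 reads in CCl4 libraries and between 6556647 and 11055679 reads in untreated libraries. The untreated libraries varied most among themselves: the median SD of a gene over 3 mice was 0.186 in CCl4 livers, 0.328 in untreated livers and 0.165 in oil livers on the log2(normalized count + 1) scale. Differences are given on that scale with the standard error (SE) of a limma fit over the 15 libraries, and a gene was called when its two-sided limma p, adjusted over all genes of the table by the Benjamini-Hochberg method, was below 0.05. A library of bulk liver tissue cannot tell fewer cells of a type from less RNA per cell, and this bears on every gene group below.

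Of the genes of the table, 1456 were higher in CCl4 than in untreated livers (41.5%), 1604 were lower (45.7%) and 451 were not called. The 3 CCl4 values and the 3 untreated values did not overlap for 2981 genes (84.9%). The median difference over all genes was -0.16, so the 2 directions were near balance under the deposited scaling. The balance rests on that scaling: with trimmed mean (TMM) factors computed over the table, 1603 genes were higher and 1285 lower, and with totals of the table set equal, 1918 were higher and 269 lower, the median of all genes then lying at 0.06 and 0.55.

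Genes higher in CCl4 than in oil livers are called induced and those lower suppressed. Of the 1711 induced genes, 1451 (84.8%) held, that is, they were called against untreated livers with the same sign, and of the 1800 suppressed genes 1603 (89.1%) held. The median difference of the induced genes that held was 1.30 against untreated and 1.21 against oil, and that of the suppressed genes that held was -0.77 against untreated and -0.60 against oil. Only 6 genes reversed, being called against untreated livers with the opposite sign. Another 16 vanished: they were not called against untreated, while oil minus untreated was called with the sign opposite to CCl4 minus oil. The other 435 genes (256 induced and 179 suppressed) passed neither test and are called unresolved. Both comparisons use the same 3 CCl4 libraries, so the counts of held genes are not independent evidence on those livers. The choice of the table also fixed the direction that most members of a gene list below could take. List counts are therefore to be read against the 84.8% of all induced and 89.1% of all suppressed genes that held. List medians are to be read against 1.16 for all induced and -0.73 for all suppressed genes. Nothing is called particular to a list from its count.

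**Figure D1:**
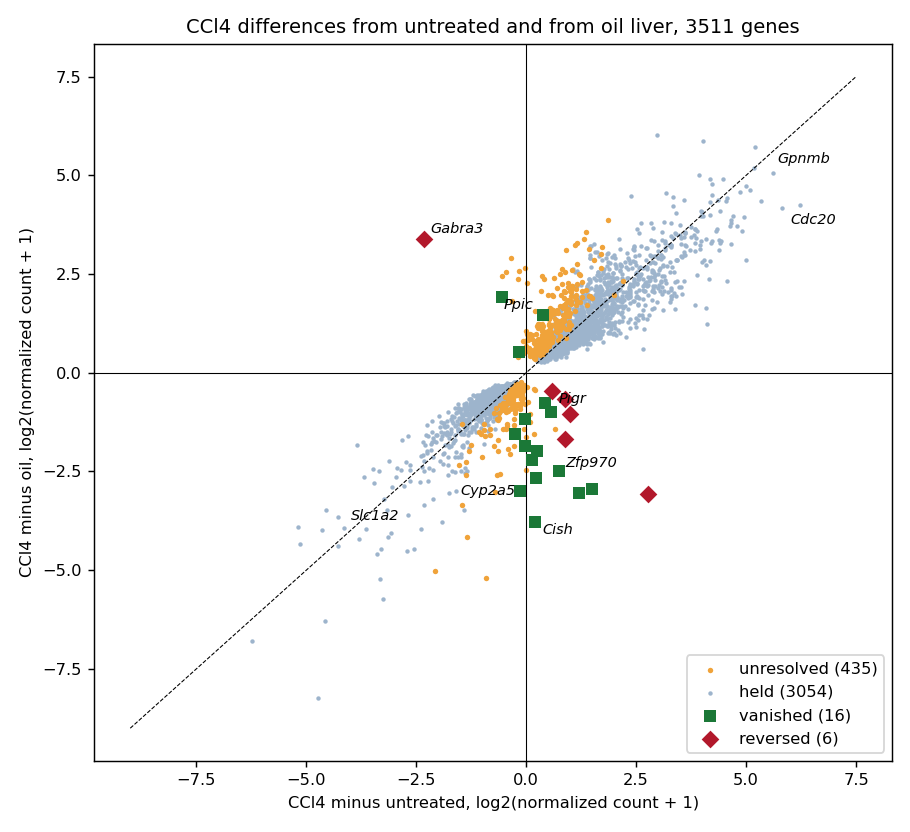
Difference of each gene of the table between CCl4 and untreated livers (x axis) and between CCl4 and oil livers (y axis), both on the log2(normalized count + 1) scale. Points are coloured by outcome. The 3054 genes that held lie along the dashed line of equal differences, and the 6 that reversed lie to the upper left or lower right of the origin. The 16 that vanished were not called on the x axis, though some, such as Gm14419 and Zfp970, lie away from 0 there.

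The cell division program was the largest group to hold. All 82 genes of mitosis and cytokinesis in the table, each of them induced against oil, were higher in CCl4 than in untreated livers, under both other scalings as well. Their median difference was 3.22, against 1.16 for all induced genes and -0.16 for all genes, and 81 of 82 were called without untreated replicate 2. Cdc20 had 881.3, 743.1 and 420.9 normalized counts in CCl4 livers, against 12.9, 2.9 and 11.5 in untreated livers and 61.2, 26.1 and 22.6 in oil livers. Cdc20, the activator of the anaphase-promoting complex, differed by 6.21 ± 0.61 (SE, limma adjusted p = 3.76e-06), the largest increase among the genes named by rule. In CCl4 livers Hmmr stood at 619.1, 649.5 and 391.6 normalized counts, in untreated livers at 23.6, 6.7 and 11.5 and in oil livers at 31.7, 19.6 and 27.3. Hmmr, a spindle-associated protein, differed by 5.34 ± 0.58 (SE, limma adjusted p = 8.55e-06).

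Livers exposed to CCl4 held 525.2, 600.3 and 293.2 normalized counts of Ccnb1, the untreated livers 34.4, 4.8 and 12.9 and the oil livers 12.7, 25 and 13.1. Ccnb1, the cyclin that drives entry into mitosis, was far higher in every CCl4 liver than in any untreated liver, and the difference was 5.00 ± 0.56 (SE, limma adjusted p = 9.73e-06). For Ckap2 the normalized counts were 613.4, 699.4 and 370.2 with CCl4, 22.6, 11.5 and 12.9 without treatment and 22.2, 21.7 and 19 with oil. Ckap2, a microtubule-associated protein of the spindle, did not overlap between the groups either and differed by 5.08 ± 0.42 (SE, limma adjusted p = 1.26e-06). Mki67 was measured at 2291, 2327 and 1913 normalized counts in CCl4 livers, 195.6, 100 and 276 in untreated livers and 221.7, 217.4 and 250.6 in oil livers. For Mki67, the proliferation antigen Ki-67, the groups were likewise far apart, with a difference of 3.62 ± 0.30 (SE, limma adjusted p = 1.35e-06). Kif2c and Cdc25c, a spindle kinesin and the phosphatase that activates Cdk1, were 169 ± 39.7 in CCl4 and 8.77 ± 4.05 in untreated livers (SD, n = 3 each; difference 4.18, limma adjusted p = 3.66e-05) and 48.8 ± 22.7 in CCl4 and 1.03 ± 1.05 in untreated livers (SD, n = 3 each; difference 4.64, limma adjusted p = 8.35e-05). Untreated replicate 2 held the fewest reads of several of these genes, and without it the differences were 5.63 for Cdc20 and 4.35 for Ccnb1, and without untreated replicate 1 that of Ccnb1 was 5.66.

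Sequences upstream of the start sites of Cdc20, Hmmr, Ckap2 and Ccnb1 are shown because mitotic promoters are known for a cell cycle homology element (TTTGAA) and for CCAAT boxes. The 110 bases before the start site were taken from RefSeq on GRCm38.p6, 5' to 3' on the strand of the gene, with both motifs in capitals on either strand (ATTGG is CCAAT on the other strand). All 4 genes are on the minus strand of their chromosomes, Cdc20 at chr4:118437344-118437453, Hmmr at chr11:40733438-40733547, Ckap2 at chr8:22185820-22185929 and Ccnb1 at chr13:100786487-100786596.
Cdc20: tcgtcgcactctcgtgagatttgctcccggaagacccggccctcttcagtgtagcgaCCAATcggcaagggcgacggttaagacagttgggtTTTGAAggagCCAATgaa
Hmmr: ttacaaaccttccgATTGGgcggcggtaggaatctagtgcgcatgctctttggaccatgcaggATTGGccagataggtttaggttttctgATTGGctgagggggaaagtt
Ckap2: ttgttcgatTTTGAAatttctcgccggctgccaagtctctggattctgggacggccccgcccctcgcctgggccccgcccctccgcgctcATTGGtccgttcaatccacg
Ccnb1: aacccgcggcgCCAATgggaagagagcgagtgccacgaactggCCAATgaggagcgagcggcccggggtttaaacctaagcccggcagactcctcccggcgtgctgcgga

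Of the 82 genes, 67 had a promoter in the RefSeq table. In the 250 bases before a start site, 25 of the 67 (37.3%) held TTTGAA, against 18.3% of 27025 genes, 44 (65.7%) held CCAAT, against 37.5%, and 19 (28.4%) held both, against 6.5%. These are matches of letters on either strand and not measured binding sites.

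DNA replication genes were also higher, with 23 of 25 called higher, 1 lower and 1 not called and a median of 1.95; 24 of the 25 were induced against oil. Mcm6, a subunit of the replicative helicase, was 375 ± 182 in CCl4 and 79.7 ± 9.6 in untreated livers (SD, n = 3 each; difference 2.12, limma adjusted p = 9.92e-05). The exception was Mcm10, a replication initiation factor. At 804.5, 780 and 1263 normalized counts in CCl4 livers, Mcm10 compared with 5028, 1843 and 4006 in untreated and 3153, 3306 and 3446 in oil livers. Mcm10 was lower in all 3 CCl4 livers than in any untreated liver, with a difference of -1.85 ± 0.35 (SE, limma adjusted p = 0.000366).

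Targets of the p53 response, all 11 induced against oil, were higher in 10 cases, with a median of 1.95, and 1 was not called; 2 of the 10, Ckap2 and Gtse1, are also in the mitosis list. CCl4 livers gave 308.7, 360.8 and 430.6 normalized counts of Cdkn1a, untreated livers 40.8, 254.8 and 77.6 and oil livers 89.7, 123.9 and 139. Cdkn1a, the cell cycle inhibitor p21, differed by 1.95 ± 0.44 (SE, limma adjusted p = 0.00102), and untreated replicate 2 was its high untreated liver: without it the difference was 2.67, and without untreated replicate 1, the lowest, it was 1.36. With CCl4 Phlda3 reached 132.3, 162.7 and 124.7 normalized counts, against 11.8, 15.4 and 10.1 in untreated livers and 16.9, 12 and 7.1 in oil livers. Phlda3, an inhibitor of Akt signalling, was high in every CCl4 liver and low in every untreated and oil liver, with a difference of 3.40 ± 0.37 (SE, limma adjusted p = 8.55e-06). Normalized counts of Eda2r were 228.7, 401.5 and 372.1 in CCl4 livers, against 55.9, 9.6 and 31.6 in untreated and 75, 27.2 and 30.9 in oil livers. Eda2r, the ectodysplasin A2 receptor, differed by 3.59 ± 0.52 (SE, limma adjusted p = 6.75e-05), and by 2.92 without untreated replicate 2, the lowest. The Gtse1 difference was 4.96, and 4.13 without untreated replicate 1.

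**Figure D2:**
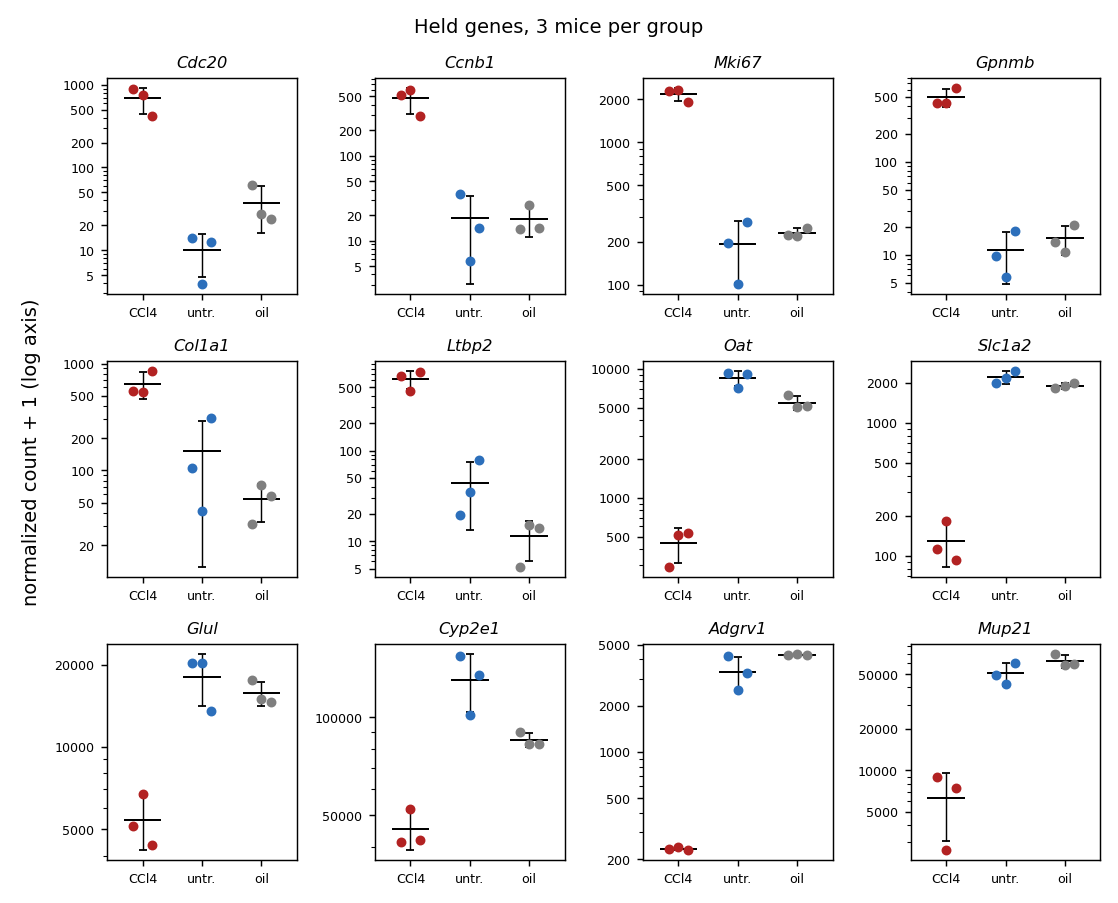
Normalized count plus 1 on a log axis for 12 genes whose CCl4 change held, in CCl4, untreated and oil livers. Points are single mice, horizontal lines are means and error bars are SD (n = 3). In every panel the 3 CCl4 values lie outside the range of the untreated values. The untreated means of Col1a1, Ltbp2, Oat, Slc1a2, Glul, Cyp2e1 and, slightly, Ccnb1 lie above the oil means.

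Collagen genes rose in CCl4 livers, although untreated livers held more of some of them than oil livers. Of 24 genes for collagens and their assembly, 20 were higher than in untreated livers, 2 lower and 2 not called, with a median of 1.19; 22 of the 24 were induced against oil. The count lower was 1 without CCl4 replicate 1 or 2 or untreated replicate 2. Col1a1 had 553.7, 535.1 and 855.4 normalized counts in CCl4 livers, against 104.2, 40.4 and 306.2 in untreated livers and 30.6, 71.7 and 57 in oil livers. Col1a1, the main chain of type I collagen, was higher in each CCl4 liver than in any untreated liver. The difference of the group means was 2.52 ± 0.53 (SE, limma adjusted p = 0.00068), beside 3.63 against oil. Untreated replicate 3 held the most Col1a1 of that group and replicate 2 the least: the difference was 3.26 without the one and 1.82 without the other. In CCl4 livers Col3a1 stood at 8912, 6794 and 10411 normalized counts, in untreated livers at 2705, 1726 and 3476 and in oil livers at 958.7, 1744 and 1634. Col3a1, type III collagen, differed by 1.76 ± 0.25 (SE, limma adjusted p = 6.05e-05) from untreated livers and by 2.62 from oil livers. Col4a1, a basement membrane collagen, was 4728 ± 714 in CCl4 and 2226 ± 302 in untreated livers (SD, n = 3 each; difference 1.08, limma adjusted p = 8.35e-05), and Lox, which cross-links collagen, was 70.8 ± 20.5 in CCl4 and 13.8 ± 3.6 in untreated livers (SD, n = 3 each; difference 2.27, limma adjusted p = 9.16e-05).

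The baselines themselves differed for 2 matrix genes, which are named here after their values were seen. Livers exposed to CCl4 held 462.3, 413.8 and 602.1 normalized counts of Col4a5, the untreated livers 235.3, 223.1 and 215.6 and the oil livers 96.1, 107.6 and 114. Col4a5, another basement membrane collagen, was lower in oil than in untreated livers, with a difference of -1.08 ± 0.17 (SE, limma adjusted p = 0.00302), so its CCl4 difference was 1.11 against untreated and 2.19 against oil. For Eln the normalized counts were 94.7, 204.2 and 137.4 with CCl4, 104.2, 42.3 and 63.2 without treatment and 17.9, 18.5 and 29.7 with oil. Eln, elastin, overlapped between CCl4 and untreated livers although its difference of 1.07 ± 0.34 (SE, limma adjusted p = 0.00913) was called. The call was lost without CCl4 replicate 2 (0.79) or untreated replicate 2 (0.76), and it was lower in oil than in untreated livers, with a difference of -1.56 ± 0.34 (SE, limma adjusted p = 0.0399).

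Among 24 other matrix and TGF-beta binding genes, 17 were higher, 2 lower and 5 not called, with a median of 0.91; 21 of the 24 were induced against oil. Ltbp2 was measured at 668.1, 452.9 and 726.8 normalized counts in CCl4 livers, 18.3, 33.7 and 77.6 in untreated livers and 4.2, 14.1 and 13.1 in oil livers. Ltbp2, a latent TGF-beta binding protein family member found on microfibrils, differed by 4.01 ± 0.56 (SE, limma adjusted p = 5.6e-05) from untreated livers and by 5.87 from oil livers. Tnc, the glycoprotein tenascin C, was 191 ± 78.4 in CCl4 and 34.4 ± 13.8 in untreated livers (SD, n = 3 each; difference 2.44, limma adjusted p = 0.00108). Bgn and Sparc, a proteoglycan and a collagen-binding glycoprotein, were not called: Sparc was 2488 ± 50.1 in CCl4 and 2102 ± 1073 in untreated livers (SD, n = 3 each; difference 0.36, limma adjusted p = 0.173), with a 95% interval of the difference of -0.16 to 0.88, and was called without untreated replicate 3 (0.75), as was Bgn (0.60).

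Of 11 matrix proteases and inhibitors, all induced against oil, 9 were higher (81.8%, beside 84.8% of all induced genes) and the others were not called. At 558.6, 575.8 and 677.1 normalized counts in CCl4 livers, Mmp2 compared with 162.3, 122.1 and 207 in untreated and 66.5, 113 and 89.1 in oil livers. Mmp2, a gelatinase made by stellate cells, differed by 1.90 ± 0.24 (SE, limma adjusted p = 3.13e-05), and Mmp14, the membrane protease that activates it, was 431 ± 71.6 in CCl4 and 203 ± 39.9 in untreated livers (SD, n = 3 each; difference 1.08, limma adjusted p = 0.000295). Serpinb8, an intracellular protease inhibitor, was 210 ± 49 in CCl4 and 32.5 ± 9.55 in untreated livers (SD, n = 3 each; difference 2.67, limma adjusted p = 1.96e-05).

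Markers of other cell types were counted in the same way. Of the 16 stellate cell and myofibroblast markers in the table, 11 were higher in CCl4 livers, 2 lower and 3 not called. Against oil, 14 of the 16 were induced, and 11 of these 14 held, beside 84.8% of all induced genes. Their summed level was 23047.4 to 27567.4 in CCl4 livers, against 10474.4 to 15422.6 in untreated livers and 8310.5 to 10609.3 in oil livers. Col1a1, Col1a2 and Col3a1 are in both lists. Acta2 and Des, defining markers of these cells, are not among the genes of the table, and no listed marker was at 0 in a whole group. The part of the cell mixture in the matrix differences was not tested.

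Of 8 macrophage markers, 6 were higher, 1 was lower and 1 was not called, the summed level being 9668.6 to 11494.5 in CCl4 livers, against 5441.0 to 8760.6 in untreated livers. The 6 higher markers were those induced against oil, and 1 of the 2 suppressed ones held. CCl4 livers gave 432.9, 433 and 627.4 normalized counts of Gpnmb, untreated livers 8.6, 4.8 and 17.2 and oil livers 12.7, 9.8 and 20.2. Gpnmb, a glycoprotein of lipid-laden and scar-associated macrophages, was low in untreated livers and differed by 5.61 ± 0.45 (SE, limma adjusted p = 1.12e-06). With CCl4 Trem2 reached 102.9, 109.8 and 88.7 normalized counts, against 23.6, 11.5 and 21.6 in untreated livers and 11.6, 32.6 and 22.6 in oil livers. Trem2, a lipid-sensing receptor of the same cells, differed by 2.40 ± 0.39 (SE, limma adjusted p = 0.00014). Lyz2, lysozyme of myeloid cells, was 3693 ± 341 in CCl4 and 1235 ± 429 in untreated livers (SD, n = 3 each; difference 1.65, limma adjusted p = 5.99e-05). Mrc1, the mannose receptor of resident macrophages and sinusoidal endothelium, went the other way, at 2175 ± 83.2 in CCl4 and 3432 ± 741 in untreated livers (SD, n = 3 each; difference -0.63, limma adjusted p = 0.0011), and had the opposite sign when totals were set equal. Adgre1 and Clec4f, defining markers of resident macrophages, are not among the genes of the table.

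All 10 cholangiocyte and progenitor markers in the table, each induced against oil, were higher in CCl4 livers, with a median of 1.36. Their summed level was 4859.4 to 5319.3 in CCl4 livers, against 2364.6 to 3712.3 in untreated livers. Normalized counts of Afp were 107, 93.7 and 175.4 in CCl4 livers, against 7.5, 9.6 and 20.1 in untreated and 11.6, 10.9 and 3.6 in oil livers. Afp, the fetal liver albumin homologue alpha-fetoprotein, differed by 3.30 ± 0.50 (SE, limma adjusted p = 8.64e-05). Sox9, a transcription factor of bile duct and progenitor cells, was 244 ± 44.1 in CCl4 and 114 ± 22.6 in untreated livers (SD, n = 3 each; difference 1.08, limma adjusted p = 0.000381). Of 5 endothelial markers, of which 4 were suppressed and 1 induced against oil, 4 were lower and 1 was higher. The higher one was not called without CCl4 replicate 2 or 3 or untreated replicate 1 or 2. With totals set equal none was called lower and the median was 0.05. Clec4g, a lectin of sinusoidal endothelial cells, was 1207 ± 25.4 in CCl4 and 2368 ± 808 in untreated livers (SD, n = 3 each; difference -0.91, limma adjusted p = 0.000709).

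Of the 4 T, NK and B cell markers, of which 3 were suppressed against oil, those 3 were lower and none higher, and their summed level was 120.5 to 301.0 in CCl4 livers, against 418.3 to 852.1 in untreated livers; under TMM scaling 1 was called lower and 1 higher. Without CCl4 replicate 2 only 1 was lower, and without untreated replicate 1, 2 were lower and 1 higher. The immunoglobulin heavy chain gene Ighm was 164 ± 79.7 in CCl4 and 501 ± 247 in untreated livers (SD, n = 3 each; difference -1.62, limma adjusted p = 0.00455). The only neutrophil marker in the table was Lcn2, the acute phase protein lipocalin 2, which hepatocytes also secrete. Lcn2 had 1698, 7198 and 693.6 normalized counts in CCl4 livers, against 60.2, 74 and 113.6 in untreated livers and 92.9, 261.9 and 380.1 in oil livers. Lcn2 was higher in each CCl4 liver, with a difference of 4.66 ± 1.14 (SE, limma adjusted p = 0.00182) that CCl4 replicate 2 enlarged: without that liver it was 3.75, and without CCl4 replicate 3, the lowest, it was 5.44.

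Among the suppressed genes, several with large differences are genes of the hepatocytes next to the central vein. In CCl4 livers Oat stood at 289.9, 515.1 and 537.8 normalized counts, in untreated livers at 9287, 7160 and 9080 and in oil livers at 6228, 5044 and 5158. Oat, ornithine aminotransferase, which feeds ornithine into glutamate synthesis, was lower in every CCl4 liver than in any untreated or oil liver by a wide margin, with a difference of -4.29 ± 0.35 (SE, limma adjusted p = 1.14e-06). Livers exposed to CCl4 held 111.1, 182.7 and 92.6 normalized counts of Slc1a2, the untreated livers 1981, 2148 and 2455 and the oil livers 1814, 1872 and 1994. Slc1a2, a glutamate transporter of the pericentral ring, was separated in the same way, with a difference of -4.13 ± 0.26 (SE, limma adjusted p = 2.11e-07). For Glul the normalized counts were 5123, 6729 and 4362 with CCl4, 20203, 20359 and 13522 without treatment and 17584, 14977 and 14565 with oil. Glul, glutamine synthetase of the same cells, differed by -1.74 ± 0.19 (SE, limma adjusted p = 9.82e-06) and did not overlap between groups.

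The pericentral list as a whole was mixed, with 7 of 14 genes lower, 4 higher and 3 not called, and a median of -0.52 that turned to 0.18 with totals set equal. Of its members, 7 of 8 suppressed and 4 of 6 induced genes held. Cyp2e1 was measured at 41425, 52208 and 41794 normalized counts in CCl4 livers, 154178, 101637 and 135134 in untreated livers and 90035, 82860 and 83002 in oil livers. Cyp2e1, which activates CCl4, differed by -1.52 ± 0.21 (SE, limma adjusted p = 4.99e-05) from untreated livers and by -0.93 from oil livers. Lhpp, a phosphatase of pericentral hepatocytes, was 39.7 ± 10.4 in CCl4 and 412 ± 101 in untreated livers (SD, n = 3 each; difference -3.35, limma adjusted p = 1.12e-06). The 4 higher genes were the amino acid transporter Slc1a4 and the Wnt pathway genes Axin2, Rnf43 and Tcf7, with differences of 1.76, 1.42, 1.15 and 0.96, the last 3 named after their values were seen. Tcf7 was not called without CCl4 replicate 2 or 3 or untreated replicate 1. Of 5 periportal genes, all suppressed against oil, 4 were lower and 1, Pigr, was higher. With totals set equal none was called lower and their median turned to 0.12. Only 2 were called lower under TMM scaling, without CCl4 replicate 2 or without untreated replicate 2. Arg1, the last enzyme of the urea cycle, was 23001 ± 2677 in CCl4 and 38821 ± 3180 in untreated livers (SD, n = 3 each; difference -0.76, limma adjusted p = 0.000261).

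Cytochrome P450 genes were lower in 19 of 27 cases, higher in 3 and not called in 5, with a median of -1.10; with totals set equal 10 were lower and 6 higher. Of the 20 suppressed against oil 19 held, and of the 7 induced 3 held. The count higher was unstable, at 7 in edgeR, 6 in DESeq2, 5 under TMM scaling, 6 without CCl4 replicate 1, 5 without untreated replicate 1 and 2 without untreated replicate 2, while 18 or 19 stayed lower in each of these. At 16500, 18142 and 25028 normalized counts in CCl4 livers, Cyp2c29 compared with 82723, 56254 and 68192 in untreated and 69445, 53877 and 54052 in oil livers. Cyp2c29, a constitutive drug-metabolizing enzyme, differed by -1.80 ± 0.30 (SE, limma adjusted p = 0.000143). Cyp3a44, a female-biased P450, was 24 ± 8.47 in CCl4 and 3.97 ± 4.02 in untreated livers (SD, n = 3 each; difference 2.58, limma adjusted p = 0.00995), the difference being 3.20 without untreated replicate 1. Cyp genes of 1 subfamily are near-identical in places, so the reads of a member can come in part from its neighbours. Of 38 conjugating and other detoxifying enzymes, 31 were lower and 4 higher (11 and 6 with totals set equal); 33 of the 38 were suppressed against oil. Ces2b, a carboxylesterase, was 27.9 ± 23.7 in CCl4 and 241 ± 63.2 in untreated livers (SD, n = 3 each; difference -3.46, limma adjusted p = 0.000953), and its difference was -2.67 without CCl4 replicate 2 and -4.13 without CCl4 replicate 1. Gstm3, a glutathione transferase, was 1358 ± 331 in CCl4 and 371 ± 67.2 in untreated livers (SD, n = 3 each; difference 1.86, limma adjusted p = 0.000533).

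All 22 genes of amino acid breakdown and the urea cycle, each suppressed against oil, were lower than in untreated livers, with a median of -0.76; with totals set equal 2 were lower and 1 higher. Tdo2, which opens tryptophan breakdown, was 25601 ± 6427 in CCl4 and 56780 ± 11750 in untreated livers (SD, n = 3 each; difference -1.16, limma adjusted p = 0.000404), and Hpd, an enzyme of tyrosine breakdown, was 23585 ± 5444 in CCl4 and 49485 ± 3364 in untreated livers (SD, n = 3 each; difference -1.10, limma adjusted p = 9.72e-05). In bile acid synthesis and transport 7 of 9 genes were lower and 2 higher (1 and 2 with totals set equal). Against oil 7 of these genes were suppressed and 2 induced, and all 9 held. CCl4 livers gave 4299, 3918 and 4056 normalized counts of Slc10a1, untreated livers 12222, 10208 and 10006 and oil livers 9458, 7220 and 7028. Slc10a1, the sodium taurocholate cotransporter that takes up bile acids, differed by -1.40 ± 0.14 (SE, limma adjusted p = 3.75e-06). Abcb4, the phospholipid pump of the bile canaliculus, was higher, at 12727 ± 3026 in CCl4 and 7937 ± 757 in untreated livers (SD, n = 3 each; difference 0.66, limma adjusted p = 0.00375).

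In fatty acid synthesis 7 of 9 genes were lower and 1 higher (1 and 1 with totals set equal). Of its 8 genes suppressed against oil 7 held, and the 1 induced gene held. Elovl3, a male-biased elongase, was 3545 ± 333 in CCl4 and 13119 ± 7917 in untreated livers (SD, n = 3 each; difference -1.70, limma adjusted p = 0.000339). In fatty acid oxidation and targets of the nuclear receptor PPAR-alpha 5 of 10 genes were higher and 2 lower, with a median of 1.63; 8 of the 10 were induced against oil. These values rest on single livers: without CCl4 replicate 2 the median was 0.63 and 4 were higher, and without CCl4 replicate 1, 8 were higher. In edgeR 8 were higher and 2 lower, and with totals set equal 7 were higher and none lower. Pdk4, the kinase that shuts off pyruvate dehydrogenase, was 1369 ± 519 in CCl4 and 360 ± 202 in untreated livers (SD, n = 3 each; difference 2.03, limma adjusted p = 0.00152), and Fabp1, the liver fatty acid binding protein, was 52270 ± 1773 in CCl4 and 129874 ± 52413 in untreated livers (SD, n = 3 each; difference -1.24, limma adjusted p = 0.0014).

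Of 29 male-biased, growth hormone dependent genes, all suppressed against oil, 26 were lower (89.7%, beside 89.1% of all suppressed genes) and 3 were not called, with a median of -1.75; 19 remained lower and none was higher with totals set equal. Normalized counts of Mup21 were 8916, 2641 and 7419 in CCl4 livers, against 49099, 42115 and 60602 in untreated and 70266, 57765 and 58944 in oil livers. Mup21, a major urinary protein, was lower in every CCl4 liver than in any untreated or oil liver, with a difference of -3.16 ± 0.39 (SE, limma adjusted p = 2.19e-05). Mup17 had 64040, 1483 and 55.5 normalized counts in CCl4 livers, against 365216, 43467 and 141903 in untreated livers and 154191, 214898 and 217778 in oil livers. Mup17 overlapped between the groups, since CCl4 replicate 1 held more than untreated replicate 2, although its difference of -6.23 ± 1.60 (SE, limma adjusted p = 0.00247) was called. The size depended on the model: Mup17 differed by -3.07 in edgeR (adjusted p = 0.0483) and by -3.07 in DESeq2 (adjusted p = 0.00721). The Mup17 difference was -3.75 without CCl4 replicate 3, the lowest liver, and -8.82 without CCl4 replicate 1. It was -5.49 without untreated replicate 1 and -7.02 without untreated replicate 2. In CCl4 livers Mup15 stood at 668.1, 3049 and 167.6 normalized counts, in untreated livers at 532, 29714 and 1616 and in oil livers at 12302, 32020 and 30297. Mup15, named after its values were seen, was low in 2 of the 3 untreated livers as well and was not called at -2.07. Both count models called it, at -3.03 in edgeR and -3.04 in DESeq2, and without untreated replicate 2, its high liver, the difference was -0.41. The Mup genes are recent copies of one another, and the assignment of reads among them is uncertain. Of 8 female-biased genes, 6 were higher and 1 lower (none lower without CCl4 replicate 2, and 2 without untreated replicate 2), the higher ones including Abcd2, a peroxisomal fatty acid transporter, at 444 ± 63 in CCl4 and 78.2 ± 29.7 in untreated livers (SD, n = 3 each; difference 2.55, limma adjusted p = 8.35e-05). All 6 female-biased genes induced against oil held, and so did 1 of the 2 suppressed ones.

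Secreted plasma proteins were lower in 12 of 18 cases, higher in 4 and not called in 2; with totals set equal 4 were lower and 6 higher. All 12 suppressed against oil held, and 4 of the 6 induced. Livers exposed to CCl4 held 193419, 253649 and 164644 normalized counts of C3, the untreated livers 62123, 101411 and 106380 and the oil livers 90521, 116660 and 121015. C3, the central complement component, did not overlap between the groups and differed by 1.20 ± 0.29 (SE, limma adjusted p = 0.00157). C4b, a complement component upstream of it, was 40376 ± 14462 in CCl4 and 9086 ± 2052 in untreated livers (SD, n = 3 each; difference 2.12, limma adjusted p = 9.66e-05). Apoa1, the main protein of high-density lipoprotein, was 109735 ± 5923 in CCl4 and 190358 ± 39034 in untreated livers (SD, n = 3 each; difference -0.78, limma adjusted p = 0.00151). For Serpina3k the normalized counts were 282912, 276822 and 275608 with CCl4, 868536, 646822 and 521909 without treatment and 407486, 494638 and 493186 with oil. Serpina3k, a serine protease inhibitor that took the largest share of reads in most libraries, differed by -1.25 ± 0.24 (SE, limma adjusted p = 0.000357).

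Of 32 heat shock proteins and chaperones, all suppressed against oil, 28 were lower (87.5%, beside 89.1% of all suppressed genes), with a median of -0.56, and the list depends on scaling: 19 were lower and none higher under TMM, while 3 were lower and 8 higher with totals set equal. Hspa1b was measured at 457.4, 357 and 506.6 normalized counts in CCl4 livers, 1230, 2486 and 1373 in untreated livers and 1893, 1718 and 1817 in oil livers. Hspa1b, an inducible Hsp70, differed by -1.89 ± 0.32 (SE, limma adjusted p = 0.000194). Dnajb1, its co-chaperone, was 530 ± 46.7 in CCl4 and 1358 ± 244 in untreated livers (SD, n = 3 each; difference -1.34, limma adjusted p = 1.35e-05). Of 6 genes of endoplasmic reticulum stress, 4 were lower and 2 higher (none lower and 2 higher with totals set equal), and 1 was higher without CCl4 replicate 1 or 3 or untreated replicate 1. The 4 lower genes had been suppressed against oil and the 2 higher ones induced. Asns, asparagine synthetase, was 212 ± 70 in CCl4 and 26.9 ± 20.6 in untreated livers (SD, n = 3 each; difference 3.13, limma adjusted p = 0.000202).

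Interferon response genes were lower in 8 of 13 cases and higher in 2 (4 lower and 5 higher with totals set equal); 8 of 9 suppressed and 2 of 4 induced genes held. Only 1 was higher in DESeq2 and without CCl4 replicate 1 or 2 or untreated replicate 1 or 3. Gbp11, an interferon-inducible GTPase, was 2187 ± 375 in CCl4 and 7736 ± 2678 in untreated livers (SD, n = 3 each; difference -1.77, limma adjusted p = 0.000391). At 361, 480.6 and 757 normalized counts in CCl4 livers, Ifi27l2b compared with 40.8, 17.3 and 17.2 in untreated and 43.3, 48.9 and 64.1 in oil livers. Ifi27l2b, an interferon-inducible mitochondrial protein family member, was 1 of the 2 higher genes of its list, with a difference of 4.40 ± 0.47 (SE, limma adjusted p = 7.79e-06). Of 5 antigen presentation genes, 4 were lower and 1 higher (1 and 1 with totals set equal), the higher one being H2-D1, a classical class I molecule, at 10717 ± 2885 in CCl4 and 5475 ± 430 in untreated livers (SD, n = 3 each; difference 0.94, limma adjusted p = 0.000259). Against oil, H2-D1 was induced and the other 4 were suppressed.

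**Figure D3:**
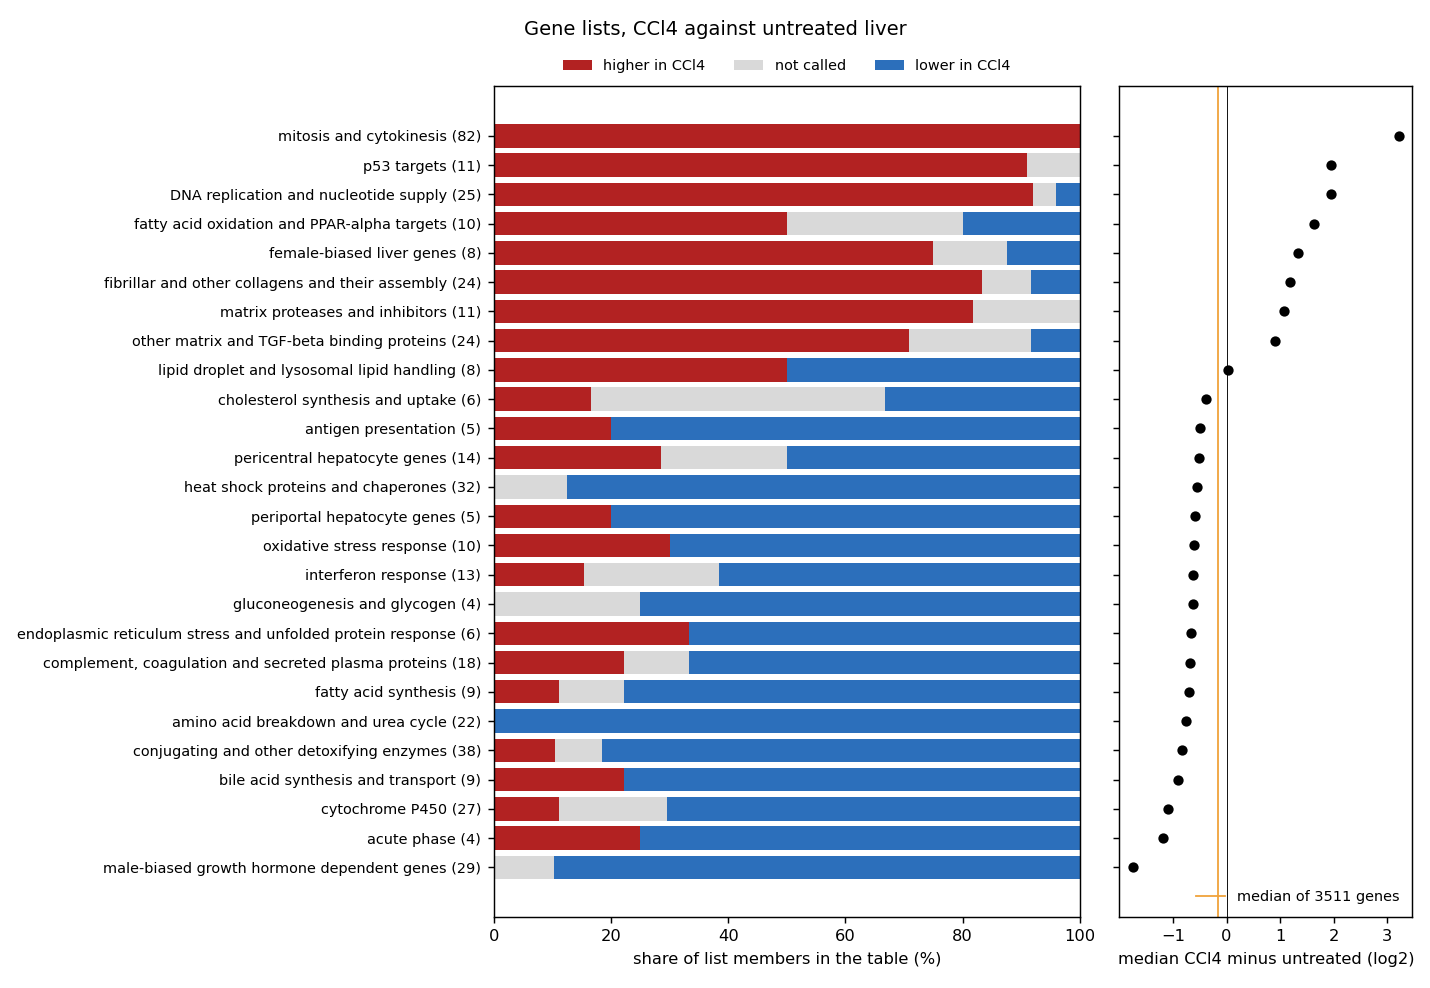
Gene lists with at least 4 members in the table, the number of members in parentheses. Left, share of members (%) higher in CCl4 than in untreated livers, not called, or lower; right, median difference on the log2 scale, with the median of all genes, -0.16, as a vertical line. Mitosis and p53 genes, all induced against oil, lie to the right and male-biased genes, all suppressed, to the left. The line mixes both directions: the median was 1.16 for all induced and -0.73 for all suppressed genes. Under equal totals the call counts of the metabolic, heat shock and interferon lists shift toward higher, as given in the text.

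Some of the genes with the largest differences belong to none of these lists. CCl4 livers gave 31, 122.1 and 44.8 normalized counts of Gldn, untreated livers 0 in each and oil livers 0, 4.3 and 4.8. Gldn, gliomedin, had no read in untreated livers, so that its mean in CCl4 livers was at least 57.0-fold higher, taking 3 reads over the untreated group as the floor. Plppr5, a membrane protein related to lipid phosphatases, had no read in any CCl4 liver and 12.2 ± 3.21 normalized counts in untreated livers (SD, n = 3), at least 14.3-fold lower. With CCl4 Adgrv1 was left at 231.1, 238.7 and 229.9 normalized counts, against 4204, 2529 and 3260 in untreated livers and 4257, 4360 and 4293 in oil livers. Adgrv1, a very large adhesion receptor, was lower in each CCl4 liver than in any untreated or oil liver, with a difference of -3.80 ± 0.30 (SE, limma adjusted p = 1.12e-06).

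Normalized counts of Slc13a4 were 0.8, 0.8 and 2.9 in CCl4 livers, against 73.1, 40.4 and 53.2 in untreated and 20.1, 30.4 and 24.9 in oil livers. Slc13a4, a sulfate transporter, was close to the detection limit in all CCl4 livers and differed by -4.56 ± 0.44 (SE, limma adjusted p = 3.75e-06). Hhip had 0, 0 and 2.9 normalized counts in CCl4 livers, against 57, 15.4 and 61.8 in untreated livers and 23.2, 21.7 and 27.3 in oil livers. Hhip, a decoy receptor for hedgehog ligands, had no read in 2 CCl4 livers and differed by -4.63 ± 0.64 (SE, limma adjusted p = 5.39e-05). Without CCl4 replicate 3 the Hhip difference was -5.29, and without untreated replicate 2 it was -5.26. In CCl4 livers Cd209f stood at 0.8, 0 and 0 normalized counts, in untreated livers at 81.7, 17.3 and 57.5 and in oil livers at 19, 12 and 22.6. Cd209f, a C-type lectin of the DC-SIGN family, was represented by 1 read in the CCl4 livers together. Its difference was -5.20 ± 0.79 (SE, limma adjusted p = 8.79e-05), and -5.84 without untreated replicate 2.

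Oil and untreated livers were compared directly as the test of whether the baselines differ. Oil was higher than untreated for 25 genes (0.712%) and lower for 7 (0.199%), and 524 genes had an unadjusted limma p below 0.05. The oil libraries took part in choosing the genes, so these counts lean toward oil values that lie beyond the untreated ones. They also rest on untreated replicate 2: without that liver 334 genes were called. Of the 32 genes, 10 held against untreated, 16 vanished and 6 reversed. With oil replicates 2 and 3, the pair of libraries most alike, taken as 1 library, 19 genes were called and 10 of the 16 vanished ones remained.

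Among the 10 that held, 7 were induced genes with oil above untreated. The order of their means, untreated, then oil, then CCl4, follows from that choice. Livers exposed to CCl4 held 263.8, 324.7 and 329.3 normalized counts of Nrg1, the untreated livers 3.2, 15.4 and 11.5 and the oil livers 29.6, 46.7 and 49.9. Nrg1, a growth factor of the epidermal growth factor family, was higher in CCl4 than in untreated livers by 5.00 ± 0.43 (SE, limma adjusted p = 1.4e-06), beside 2.86 against oil, and oil exceeded untreated livers by 2.14 ± 0.43 (SE, limma adjusted p = 0.0206). Without untreated replicate 1, the lowest, the Nrg1 difference was 4.42. For Lilr4b the normalized counts were 254, 240.3 and 329.3 with CCl4, 36.5, 61.5 and 33.1 without treatment and 178.4, 188 and 169.9 with oil. Lilr4b, an immunoglobulin-like receptor of myeloid cells, had a difference of only 0.60 against oil but 2.66 ± 0.24 (SE, limma adjusted p = 2.22e-06) against untreated livers, with oil above untreated by 2.06 ± 0.24 (SE, limma adjusted p = 0.00118). Hunk, a protein kinase, Gas2l3, a cytoskeletal linker, Dkk3, a secreted Dickkopf family protein, and Igf2bp2, an mRNA-binding protein, belong to the same 7. Their differences were 2.50, 2.65, 1.98 and 2.27 against untreated and 1.16, 1.58, 0.97 and 0.91 against oil. Gm47405 is the seventh of these genes. Another pair that held, Col4a5 and Eln, had oil below untreated, as given above. The 1 suppressed gene was Spp2, a secreted phosphoprotein made by hepatocytes. Spp2 was measured at 1216, 1258 and 1161 normalized counts in CCl4 livers, 3678, 2363 and 3047 in untreated livers and 1779, 1937 and 2066 in oil livers. Spp2 was lower in CCl4 than in untreated livers, with a difference of -1.30 ± 0.14 (SE, limma adjusted p = 7.79e-06), and lower in oil than in untreated livers, with one of -0.63 ± 0.14 (SE, limma adjusted p = 0.0399).

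The changes that vanished were mostly those of suppressed genes, 13 of the 16, and in each of the 13 every oil liver was above all CCl4 and untreated livers. At 59.6, 66 and 43.8 normalized counts in CCl4 livers, Cish compared with 89.2, 11.5 and 103.5 in untreated and 917.5, 727.1 and 694.9 in oil livers. Cish, the cytokine-inducible inhibitor of growth hormone and other cytokine receptors, lies at chr9:107296026-107302784 (GRCm38). Its CCl4 and untreated values overlapped with a difference of 0.21 ± 0.70 (SE, limma adjusted p = 0.777), and oil exceeded untreated by 3.98 ± 0.70 (SE, limma adjusted p = 0.00795). Without untreated replicate 2, the low liver, the difference was -0.78.

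CCl4 livers gave 294.8, 208.8 and 183.2 normalized counts of Cyp2a5, untreated livers 335.3, 264.4 and 172.5 and oil livers 2243, 1531 and 1668. Cyp2a5, a coumarin hydroxylase at chr7:26835305-26843548 (GRCm38), overlapped between CCl4 and untreated livers with a difference of -0.15 ± 0.40 (SE, limma adjusted p = 0.729), and oil exceeded untreated by 2.84 ± 0.40 (SE, limma adjusted p = 0.00166). With CCl4 Foxq1 reached 175.6, 101.3 and 315.6 normalized counts, against 207.4, 148.1 and 113.6 in untreated livers and 1506, 1019 and 944.3 in oil livers. Foxq1, a forkhead transcription factor at chr13:31556134-31560976 (GRCm38), also overlapped, with a difference of 0.23 ± 0.38 (SE, limma adjusted p = 0.567), and oil exceeded untreated by 2.89 ± 0.38 (SE, limma adjusted p = 0.00124).

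Normalized counts of Phlda1 were 223.8, 202.7 and 226 in CCl4 livers, against 154.7, 160.6 and 306.2 in untreated and 1003, 1023 and 983.5 in oil livers. Phlda1, a pleckstrin homology-like protein at chr10:111506286-111508645 (GRCm38), differed by 0.14 ± 0.30 (SE, limma adjusted p = 0.653) between CCl4 and untreated livers, whose values overlapped, and oil exceeded untreated by 2.34 ± 0.30 (SE, limma adjusted p = 0.00124). Hspb1 had 65.3, 112.1 and 79.9 normalized counts in CCl4 livers, against 44.1, 188.4 and 73.3 in untreated livers and 269.2, 321.7 and 332.6 in oil livers. Hspb1, the small heat shock protein Hsp25, differed by -0.02 ± 0.38 (SE, limma adjusted p = 0.957), with oil above untreated by 1.84 ± 0.38 (SE, limma adjusted p = 0.029). It was 1 of the 4 heat shock genes not called above.

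Transcription factors of liver development were also among the changes that vanished. In CCl4 livers Hhex stood at 566, 525.9 and 547.5 normalized counts, in untreated livers at 240.7, 645.2 and 326.3 and in oil livers at 1082, 1055 and 1107. Hhex, a homeobox factor of liver development, overlapped between CCl4 and untreated livers because untreated replicate 2 was high. Its difference of 0.56 ± 0.26 (SE, limma adjusted p = 0.0541) was not called, and without that liver it was 0.96 and called, in the direction opposite to the change against oil. Livers exposed to CCl4 held 252.4, 235.7 and 263 normalized counts of Foxa1, the untreated livers 146.2, 238.4 and 188.3 and the oil livers 467.7, 415.2 and 407.4. Foxa1, a pioneer factor, showed the same pattern, with 0.42 ± 0.20 (SE, limma adjusted p = 0.0564), and 0.59 and called without untreated replicate 2. Oil exceeded untreated by 1.54 ± 0.26 (SE, limma adjusted p = 0.00603) for Hhex and by 1.19 ± 0.20 (SE, limma adjusted p = 0.00491) for Foxa1.

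Arid5b, a chromatin-associated factor, and Rgs3, a regulator of G protein signalling, complete the named suppressed genes. Arid5b was 1650 ± 392 in CCl4 and 1663 ± 78.1 in untreated livers (SD, n = 3 each; difference -0.04, limma adjusted p = 0.885), and oil livers had 3637 ± 357. Rgs3 was 157 ± 19.5 in CCl4 and 201 ± 89.2 in untreated livers (SD, n = 3 each; difference -0.25, limma adjusted p = 0.421), and oil livers had 465 ± 72.3. Without untreated replicate 2, the Rgs3 difference was -0.65 and called, so that its suppression held among the 5 remaining livers. The predicted genes Gm14403 and Gm14419 and the RIKEN clone D830032E09Rik also vanished. For Gm14419 this depended on the model: its difference of 1.51 was not called, but both count models called it higher in CCl4 than in untreated livers, opposite to its change against oil, at 2.42 in edgeR (adjusted p = 0.0338) and 2.51 in DESeq2 (adjusted p = 0.0122). It was called higher at 2.57 without CCl4 replicate 1 as well.

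In the 3 induced genes that vanished, every oil liver was below all CCl4 and untreated livers. For Ppic the normalized counts were 214, 224.9 and 228.9 with CCl4, 222.5, 122.1 and 178.2 without treatment and 85.5, 79.3 and 74.8 with oil. Ppic, the secretory pathway cyclophilin C, overlapped between CCl4 and untreated livers, with a difference of 0.39 ± 0.23 (SE, limma adjusted p = 0.112), and was lower in oil than in untreated livers, with a difference of -1.08 ± 0.23 (SE, limma adjusted p = 0.0336). Without untreated replicate 1 its difference was 0.59 and called. Slc46a3 was measured at 1286, 911.2 and 987.8 normalized counts in CCl4 livers, 1126, 1197 and 1186 in untreated livers and 721.1, 771.6 and 704.4 in oil livers. Slc46a3, a lysosomal transporter, overlapped as well, with a difference of -0.15 ± 0.13 (SE, limma adjusted p = 0.249), and was lower in oil than in untreated livers, with a difference of -0.68 ± 0.13 (SE, limma adjusted p = 0.0124). Without CCl4 replicate 1 it was -0.30 and called, in the direction opposite to the change against oil. The last was the predicted gene Gm14399.

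Of the 6 genes that reversed, 5 had been suppressed against oil and were higher than in untreated livers. At 23376, 18414 and 17542 normalized counts in CCl4 livers, Pigr compared with 14938, 13153 and 11373 in untreated and 26750, 27019 and 26822 in oil livers. Pigr, the polymeric immunoglobulin receptor that carries IgA into bile, at chr1:130826684-130852249 (GRCm38), was lowest in untreated, intermediate in CCl4 and highest in oil livers, with no overlap between the groups. CCl4 exceeded untreated by 0.58 ± 0.14 (SE, limma adjusted p = 0.00155), and oil exceeded untreated by 1.04 ± 0.14 (SE, limma adjusted p = 0.00124). The other 4, Gm379, Gm48478, Gm14410 and Gm14421, are predicted genes or pseudogenes, named because they are few. CCl4 livers gave 170.7, 145.9 and 119.8 normalized counts of Gm379, untreated livers 104.2, 50 and 70.4 and oil livers 255.5, 293.4 and 348. The CCl4 minus untreated difference of Gm379 was 0.997 ± 0.34 (SE, limma adjusted p = 0.0121), and those of Gm48478, Gm14410 and Gm14421 were 0.89, 0.88 and 2.77. Gm379 was not called without untreated replicate 2 (0.74), and Gm14410 not without CCl4 replicate 2 (0.57) or 3 (0.66) or untreated replicate 1 or 3. Gm14421 was at 3.65 without CCl4 replicate 1 and at 2.00 without untreated replicate 3.

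With CCl4 Gabra3 was left at 91.5, 0.8 and 5.8 normalized counts, against 57, 46.2 and 50.3 in untreated livers and 0 in each in oil livers. Gabra3, a subunit of the GABA-A receptor, was the 1 induced gene that reversed, and rests on single livers. CCl4 replicate 1 was above all untreated livers and the other 2 CCl4 livers were below them, so the groups overlapped, although the difference of -2.32 ± 0.97 (SE, limma adjusted p = 0.0361) was called. No oil liver had a read of it. Its call was lost in both count models (-0.635 in edgeR and -0.645 in DESeq2), under both other scalings, with the EV libraries left out, and without CCl4 replicate 2 (-1.05) or 3 (-2.01) or untreated replicate 1, 2 or 3. Without CCl4 replicate 1 it was -3.89.

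Of the 22 genes that vanished or reversed, 6 lie close together on chromosome 2, between positions 175129493 and 177509763 on GRCm38: Gm14399, Gm14403, Gm14410, Gm14419, Gm14421 and Zfp970. The same stretch holds 7 genes of the table, the seventh, Gm14412, being an induced gene that held, though not without CCl4 replicate 3 or untreated replicate 1. The limits of the stretch were set by the outermost of the 6 genes themselves, after their outcomes were known. A local excess of such genes was not tested. Normalized counts of Zfp970 were 766.1, 1522 and 2322 in CCl4 livers, against 728.6, 1417 and 562 in untreated and 8307, 7593 and 7685 in oil livers. Zfp970, a zinc finger protein, had its 3 oil livers above all CCl4 and untreated livers, and its difference of 0.74 ± 0.57 (SE, limma adjusted p = 0.227) between CCl4 and untreated livers was not called. The genes of this stretch are zinc finger copies of high similarity, so reads may be shared among them and the 6 are not separate observations.

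**Figure D4:**
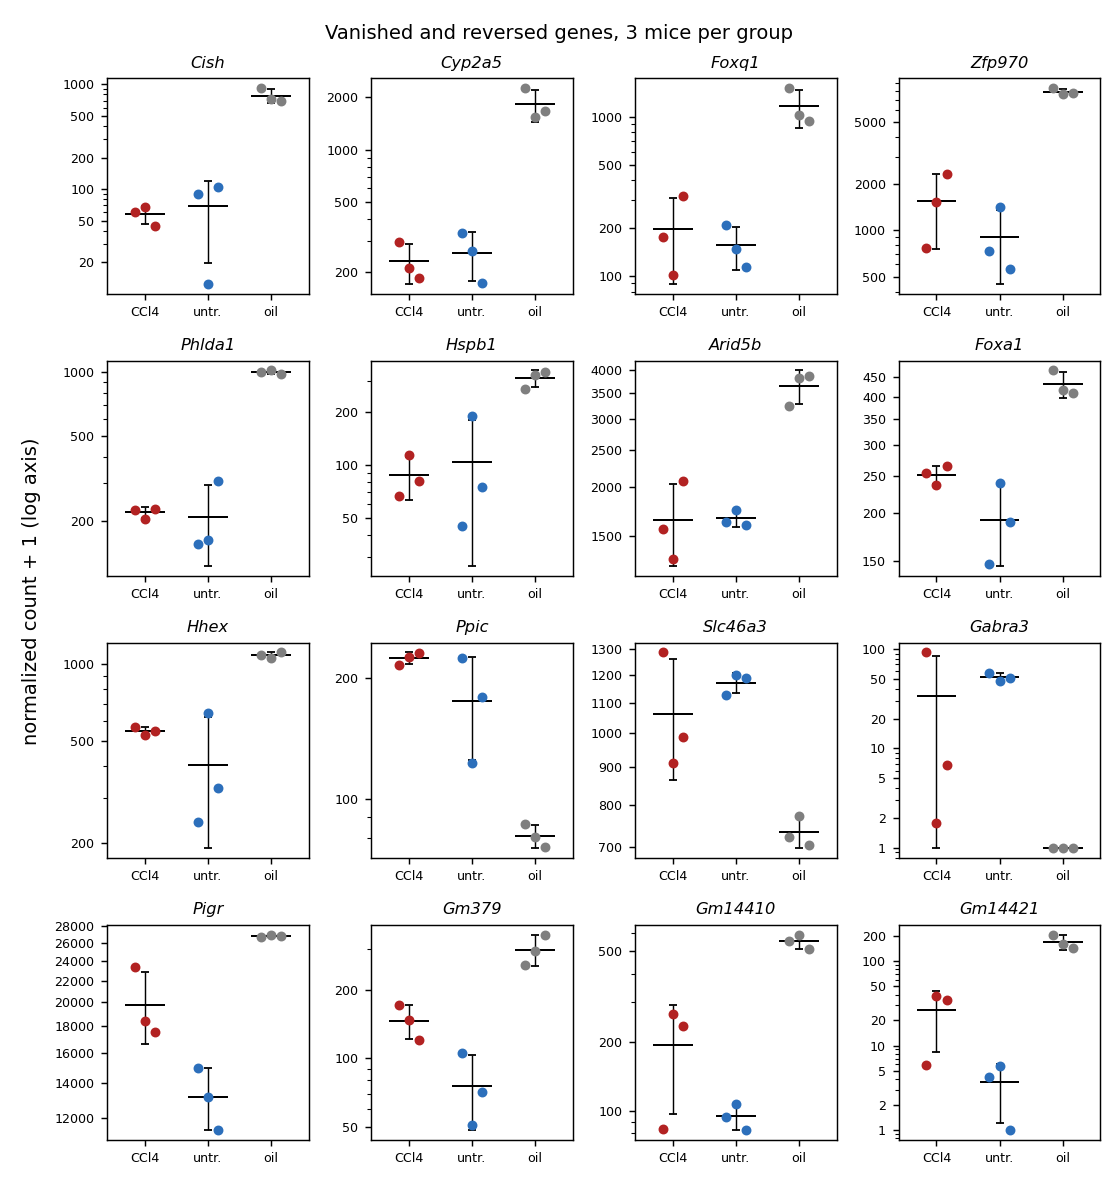
Normalized count plus 1 on a log axis for 16 of the 22 genes that vanished or reversed, in CCl4, untreated and oil livers. Points are single mice, horizontal lines are means and error bars are SD (n = 3), drawn no lower than a count of 0. In the panels from Cish to Hhex the oil values lie above the CCl4 and untreated values; in those of Ppic, Slc46a3 and Gabra3 they lie below the untreated ones.

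By size of the change against oil, the share of induced genes that held was 85.2% up to 0.5, 83.2% at 0.5 to 1, 83.8% at 1 to 2, 86.4% at 2 to 3 and 92.7% of the 124 genes above 3. Among suppressed genes the shares were 87.7% for decreases up to 0.5, 92.8% at 0.5 to 1, 79.4% at 1 to 2, 76.8% of 56 genes at 2 to 3 and 78.4% of 37 genes beyond 3. These shares were not tested against each other. The unresolved genes include 25 induced and 16 suppressed ones with an unadjusted limma p below 0.05 against untreated livers.

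Several genes were also assayed by RT-PCR in the same work, and the table holds 19 such genes. Of the 19, 13 were higher in CCl4 than in untreated livers and 3 lower, the lower ones being Slc1a2, Mup18 and the interferon-inducible GTPase Ifi47. Against oil, 15 of the 19 were induced and 4 suppressed. The 3 not called were Cyp4a31 and Cyp2c55, both induced, and Ccn2, which was suppressed. Both count models called Cyp4a31 and Cyp2c55 as well, so that 15 of the 19 were higher and 1 was not called there. Ccn2 had 84.1, 105.2 and 218.2 normalized counts in CCl4 livers, against 132.2, 195.2 and 303.3 in untreated livers and 161.5, 360.8 and 392 in oil livers. Ccn2, the matricellular growth factor also called CTGF, overlapped between all groups, with a difference of -0.67 ± 0.40 (SE, limma adjusted p = 0.119) and a 95% interval of -1.51 to 0.17. Without CCl4 replicate 3 it was -1.07 and called. Cyp4a31, a fatty acid hydroxylase, was 38.2 ± 46.1 in CCl4 and 8.87 ± 2.67 in untreated livers (SD, n = 3 each; difference 1.35, limma adjusted p = 0.112), with a difference of 0.39 without CCl4 replicate 2 and 1.89, called, without CCl4 replicate 1. In edgeR Cyp4a31 was at 2.13 (adjusted p = 0.0207) and in DESeq2 at 2.12 (adjusted p = 0.0194). Cyp2c55, an inducible P450, was 160 ± 69.9 in CCl4 and 78.4 ± 28.5 in untreated livers (SD, n = 3 each; difference 0.96, limma adjusted p = 0.0544), and was called without CCl4 replicate 2 (1.39) or untreated replicate 1 (1.23), in edgeR (1.02, adjusted p = 0.0341) and in DESeq2 (1.02, adjusted p = 0.0222). Serpinh1, the collagen chaperone Hsp47, was called at 645 ± 85.4 in CCl4 and 444 ± 7.09 in untreated livers (SD, n = 3 each; difference 0.53, limma adjusted p = 0.0113), but not without CCl4 replicate 3 (0.42).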

How the data were processed

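Libraries were made from ribosomal RNA-depleted total RNA of liver tissue with a strand-marking kit and adapters carrying molecular identifiers, from 3 mice in each of 5 groups. The authors aligned reads to GRCm38.p3 with STAR, counted them per gene with featureCounts, and normalized and tested with DESeq2. Use of strand or of the identifiers in counting is not given in the sources used here, so reads of a gene and an overlapping antisense gene cannot be told apart. The deposited signal values are counts divided by 1 size factor per library, rounded by the authors to 1 decimal. The deposited table holds the genes the authors called between CCl4 and oil livers, and its columns of log2 fold change, standard error, Wald statistic, p and adjusted p were not used. Whole reads were recovered, within 0.1 read, for 100% of values. Totals of the table (6106856 to 11055679 reads per library in the 3 groups described) are not library depths, since the table is a selection.

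Log2(normalized count + 1) values of all 15 libraries entered 1 limma fit (version 3.58.1, R 4.3.3) with a mean per group and a mean-variance trend. CCl4 minus untreated and oil minus untreated got two-sided p-values, adjusted across the table by the Benjamini-Hochberg method and called below 0.05. CCl4 minus oil gave each gene's direction and the sizes against oil, which also ranked some of the named genes, and no call was made from it. The genes were chosen by that contrast, so its sizes lean toward larger values. The fit was tested on simulated counts. Alternatives were edgeR (4.0.16) and DESeq2 (1.42.0) on the recovered reads, other scalings, filters, pseudocounts and thresholds, a replicate block, and single libraries left out. Which mice were littermates of which is not given in the sources used here. The p-values rest on 1 spread per gene, pooled over the mice of all 5 groups. Untreated livers varied more than that pooling assumes (median SD 0.328, against 0.186 in CCl4 and 0.165 in oil livers). Standard errors of differences from untreated livers may therefore be too small.

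Genes were named by a rule: the 10 highest and 10 lowest called genes without overlap, vanished and reversed genes, up to 8 held genes per direction with a gain over oil, up to 5 abundant and 4 most changed members of each of 37 lists, and genes of the RT-PCR work. The text names part of them and says where a gene was named after its values were seen. The members, lists and tests were chosen with earlier results of these data known.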

Additional observations from a re-analysis of the deposited data

How the results depend on the processing

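With totals of the table set equal, 269 genes were lower in CCl4 than in untreated livers and 264 suppressed genes held, 5 induced and 24 suppressed genes reversed, and the differences of Arid5b (0.67), Mrc1 (0.076) and Slc46a3 (0.55) had the opposite sign; equal totals over a selection of genes differ from equal library depth by construction. TMM scaling gave 9 suppressed and 0 induced genes that reversed. DESeq2 called 90 genes between oil and untreated livers, with 17 induced and 24 suppressed genes vanished and 0 induced genes reversed. edgeR and the fit on CCl4, untreated and oil libraries alone also gave 0 induced genes reversed. At a threshold of 0.01 the induced and suppressed reversed genes numbered 0 and 3, 2 induced genes vanished, and oil against untreated had 19 genes. Oil replicates 2 and 3 differed by more than sampling noise, but their chi-square per gene was 2.17, against 31.43 to 283.35 for the other pairs within a group. Whether they are separate mice was not tested, and if they are not, the oil spread is understated. Taken as 1 library they gave 19 oil against untreated genes, with 1 induced and 9 suppressed vanished genes. All 10 were among the 16, so that 6 of the 16 were lost.

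Leaving out single libraries gave 0 to 2 induced and 4 to 6 suppressed reversed genes, 2 to 32 induced and 9 to 35 suppressed vanished genes, and 20 to 334 oil against untreated genes; the upper ends of the last 3 ranges came from leaving out untreated replicate 2. The counts higher (1291 to 1432) and lower (1494 to 1599) in CCl4 livers varied less. Of the 16 vanished genes, 13 were also among the 67 without untreated replicate 2 and 15 among the 41 of DESeq2. With a replicate block 1474 genes were higher and 1622 lower, 40 differed between oil and untreated livers, and 2 named genes, Ccn2 and Cyp2c55, became called. Deviations of same-numbered CCl4 and untreated livers had r of 0.15, -0.04 and 0.08, and those of oil and untreated livers 0.12, 0.05 and 0.16. With 3 mice per group, such weak correlations cannot decide whether the numbers pair the mice. With 3 mice per group and a table selected on the same CCl4 livers, small differences stay below detection, above all where untreated livers spread.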
